A study of Mus musculus with 10 samples.

Results

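Acsl1, Acsl3, Acsl4 and Acsl5 encode the long-chain acyl-CoA synthetases that liver expresses, and they are 4 of the 27179 genes in the count table. They were chosen by symbol and matched to NCBI Gene numbers 14081, 74205, 50790 and 433256, and all 4 were abundant enough to be among the 15226 genes tested. The tested animals were male C57BL/6 mice with floxed Lpcat3 alleles and a Cre transgene driven by the albumin promoter (genotype Lpcat3f/f Albumin-Cre, called LKO), and the controls were male C57BL/6 mice with the floxed alleles and no Cre (Lpcat3f/f, called CON). Both groups had received a diet that produces nonalcoholic steatohepatitis (NASH) for 12 weeks, so each comparison here is between genotypes on that diet. Each group held 5 mice with 1 library of whole liver RNA per mouse. The labels used here give no age. Albumin-driven Cre acts in hepatocytes, and its reach into other liver cells was not measured here.

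A long-chain acyl-CoA synthetase joins a free fatty acid to coenzyme A at the cost of ATP. The resulting acyl-CoA is the form in which fatty acids enter beta-oxidation, triglyceride synthesis and the remodelling of membrane phospholipids. Lpcat3 uses polyunsaturated acyl-CoAs to acylate lysophospholipids, so these enzymes stand one step before it. Acsl1 is the main isoform of liver, is found at mitochondria and endoplasmic reticulum and is a known target of the fatty acid receptor PPARalpha. Acsl5 lies at mitochondria and endoplasmic reticulum, and Acsl3 lies at endoplasmic reticulum and lipid droplets. Acsl4 prefers arachidonic acid and related polyunsaturated fatty acids and is known for supplying the lipids that are oxidised in ferroptosis.

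The libraries held 26914124 (CON 4) to 46727182 (CON 5) counts. The targeted gene, Lpcat3, stood at 31.3 ± 4.65 CPM in LKO and 109 ± 13.3 CPM in CON (SD, n = 5 each) without overlap, so it does not go against the labels. CPM is a gene's count relative to the TMM-scaled total of its library. Along principal component 1 (56.8% of the variance) LKO ran from -8.03 to 82.3 with LKO 3 at the top, and CON from -52.7 to -30.1 apart from CON 4 at 30.2. Hepatocyte markers (Alb, Apoa1, Ttr, Cps1, Pck1, Cyp2e1) summed to 35200 to 53100 CPM in LKO and 40500 to 65400 CPM in CON, and none was at 0 in any library. The members' fold changes are given with and without CON 4 and LKO 3. In bulk liver RNA, fewer cells of a type and less RNA per cell cannot be told apart. P-values weigh the difference between the groups against the spread between these mice, and the main fit treats the mice of a group as independent.

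The promoter windows of Acsl3 and Acsl5 are shown because these are the pair of members whose profiles over the 10 libraries, each centred on its own mean, were most alike. All 4 members matched RefSeq's promoter table (build GRCm38.p6, 250 bases before to 50 after the start). The windows lie at chr1:78657575-78657874 on the plus strand for Acsl3 and at chr19:55253119-55253418 on the plus strand for Acsl5. Capitals mark GC boxes (GGGCGG on either strand) and CCAAT boxes (CCAAT on either strand), which abut, sharing no base, at 1 place in Acsl3.
Acsl3: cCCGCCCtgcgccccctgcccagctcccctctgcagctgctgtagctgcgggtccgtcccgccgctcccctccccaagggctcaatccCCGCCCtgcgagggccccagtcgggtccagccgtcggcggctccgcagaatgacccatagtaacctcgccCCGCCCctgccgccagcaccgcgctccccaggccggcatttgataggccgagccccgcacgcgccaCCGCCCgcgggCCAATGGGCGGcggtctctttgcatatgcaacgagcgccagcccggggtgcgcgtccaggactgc
Acsl5: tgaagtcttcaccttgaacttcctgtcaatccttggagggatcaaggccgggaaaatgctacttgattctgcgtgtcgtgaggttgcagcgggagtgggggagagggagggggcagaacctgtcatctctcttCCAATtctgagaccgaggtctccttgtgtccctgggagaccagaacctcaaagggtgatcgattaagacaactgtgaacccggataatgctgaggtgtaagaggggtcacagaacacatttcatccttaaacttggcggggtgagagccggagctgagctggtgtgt

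The Acsl3 window is rich in CpG, with 33 CpG dinucleotides, 74.0% G and C and 5 GC boxes. The Acsl5 window has 9 CpG dinucleotides, 53.0% G and C and 0 GC boxes. A GC box occurs in 35.7% and a CCAAT box in 37.4% of the 32851 RefSeq promoter windows of this length. Neither window holds the exact letters of a sterol response element (TCACNCCAC) or a direct repeat of AGGTCA with 1 base (PPAR type) or 4 bases (LXR type) between the copies, searched on both strands. These occur in 1.24%, 0.0396% and 0.0152% of windows. The sterol response letters occur 1 time in the second of the 2 Acsl1 windows. The Acsl4 window and the first Acsl1 window hold none of these 3 motifs.

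Acsl1 and Acsl5 were the abundant members and Acsl4 and Acsl3 the scarce ones. Levels between genes were compared as CPM per kb of exon sequence (exon lengths of 4.17 kb for Acsl1, 3.95 kb for Acsl3, 5.33 kb for Acsl4 and 4.24 kb for Acsl5, from GENCODE M21). On this scale Acsl1 averaged 245 ± 79.4 in LKO and 274 ± 82.6 in CON, and Acsl5 averaged 106 ± 23.2 in LKO and 73.2 ± 9.60 in CON. Acsl4 averaged 20.6 ± 7.69 in LKO and 13.5 ± 3.93 in CON, and Acsl3 averaged 12.3 ± 1.36 in LKO and 7.33 ± 1.27 in CON (SD, n = 5 each). The order Acsl1, Acsl5, Acsl4, Acsl3 held in all 10 libraries. The ranges of Acsl4 and Acsl3 did not overlap within either group. In LKO the range was 15.3 to 33.6 CPM per kb for Acsl4 and 10.9 to 14.1 for Acsl3, and in CON it was 9.84 to 20.2 for Acsl4 and 5.57 to 8.53 for Acsl3. In LKO the ranges of Acsl1 (132 to 328) and Acsl5 (84.5 to 144) overlapped, and in CON those of Acsl1 (148 to 366) and Acsl5 (62.2 to 87.5) did not.

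Acsl6, the remaining gene of the family and mainly a gene of brain, is no member here and fell under the low-count filter. Its counts were 5, 1, 2, 0 and 3 in LKO 1 to 5 and 7, 7, 10, 2 and 13 in CON 1 to 5. In LKO 4, where it had 0 counts, the depth allows up to 0.0764 CPM (3 counts, for counting error only). No fold is given for it.

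**Figure D1:**
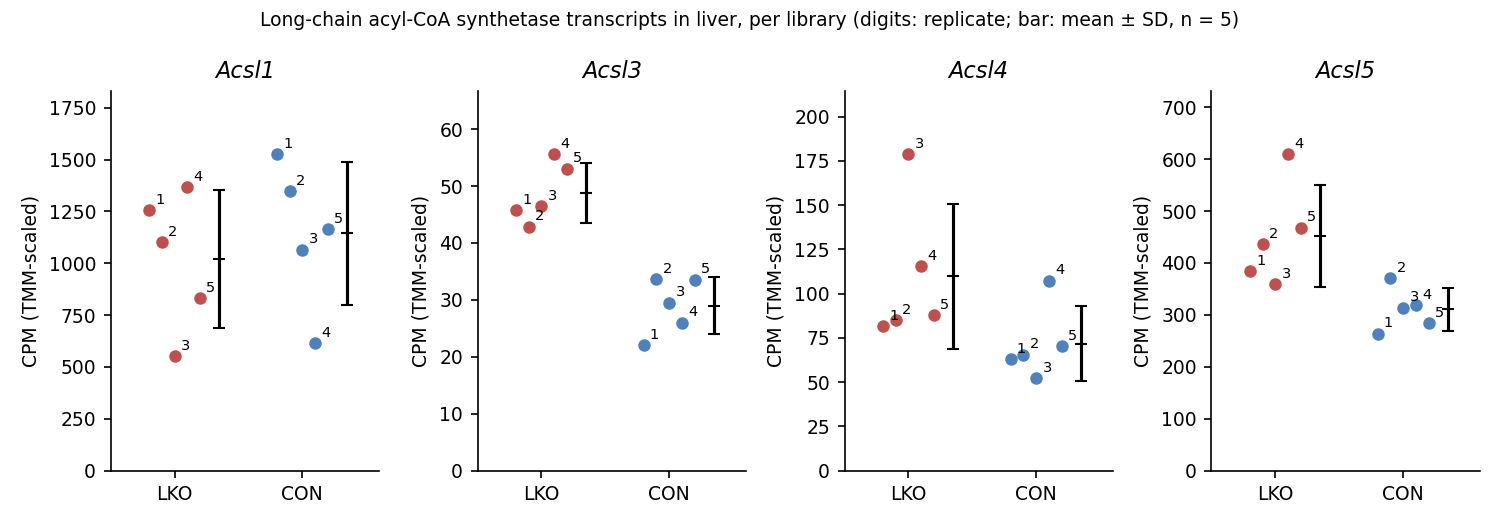
Level of each member in each library, in TMM-scaled CPM on a linear axis from 0, with LKO left and CON right of each panel. Points are libraries with their replicate number, and bars are the mean ± SD of 5 libraries. Acsl3 is the panel in which the groups do not overlap, while Acsl1 has its lowest and Acsl4 its highest value in LKO 3 and CON 4.

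Of the 4 members, 0 passed an adjusted p under 0.05 with all 10 libraries (edgeR quasi-likelihood test, Benjamini-Hochberg over 15226 genes), where 10 genes or 0.0657% of all tested passed. An unadjusted p under 0.05 was reached by 3 members, all higher in LKO, against 12.8% of all tested genes that were higher at that level. The median log2 fold change of the 4 members was 0.58, beside -0.00 for all genes tested. By that test, 3 had a 95% interval of the log2 fold change above 0, and that of Acsl1 spanned 0.

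Acsl3 was the member with the clearest separation between the groups. It had 45.8, 42.9, 46.5, 55.6 and 53.1 CPM in LKO 1 to 5, against 22.0, 33.7, 29.5, 26.0 and 33.6 CPM in CON 1 to 5. Every LKO library lay above every CON library, which was so for 1.72% of all genes tested. LKO 4 and LKO 5 were the highest libraries and CON 1 the lowest. Its means were 48.8 ± 5.35 CPM in LKO and 29.0 ± 5.02 CPM in CON (SD, n = 5 each), 1.68-fold higher in LKO with a 95% interval of 1.39- to 2.04-fold. The log2 fold change was 0.75 (SE 0.13), and the adjusted p of 0.0521 missed the threshold (edgeR quasi-likelihood test). By unadjusted p it ranked 24 among 15226 genes.

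The threshold for Acsl3 was crossed under 8 of 23 alternatives and its fold change stayed above 0 in all 23. Without CON 4 the edgeR adjusted p was 0.0109, but then 15.0% of all genes tested passed, and without LKO 1 it was 0.0464, with 0.558% passing. DESeq2 gave an adjusted p of 5.02e-05 (7.79% of all genes passing) and limma voom with quality weights 0.00864 (16.2% passing). In edgeR the adjusted p was 0.0494 with total counts (0.0788% of genes passing), 0.0451 without a low-count filter (0.119%), 0.0484 with at least 1 CPM in 5 libraries (0.152%) and 0.00905 without CON 4 and LKO 3 together (15.6%). Acsl3 overlaps Utp14b, a gene of ribosome biogenesis, in RefSeq, and the sources used here do not say how reads in shared sequence were counted. Utp14b itself had 22.1 ± 3.38 CPM in LKO and 17.4 ± 2.13 CPM in CON (log2 fold change 0.34, edgeR adjusted p = 0.152). The long non-coding models Gm51635, Gm31050 and Gm31595, which overlap Acsl3, Acsl1 and Acsl5, were not analysed here.

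Acsl5 was higher in LKO by a smaller factor, with 1 overlap between the groups. It had 385, 436, 359, 610 and 468 CPM in LKO 1 to 5, against 264, 371, 314, 319 and 284 CPM in CON 1 to 5. LKO 4 was the highest library, and LKO 3 was the one LKO library below a CON library (CON 2). The means were 452 ± 98.4 CPM in LKO and 311 ± 40.7 CPM in CON, with a log2 fold change of 0.54 (SE 0.15), 1.45-fold with a 95% interval of 1.15- to 1.84-fold. The edgeR adjusted p was 0.119 and the unadjusted rank was 617. Without LKO 4 the log2 fold change was 0.40, the lowest with any 1 library left out. The adjusted p was 0.0174 with DESeq2 and 0.0238 in edgeR without CON 4 and LKO 3 together. Of all genes tested, 7.79% and 15.6% passed in these fits.

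Acsl4, the arachidonate-preferring member, was also higher in LKO on average, but its values depended on 2 libraries. It had 81.5, 84.9, 179, 116 and 88.0 CPM in LKO 1 to 5, against 63.2, 65.5, 52.4, 107 and 70.5 CPM in CON 1 to 5. LKO 3 was the highest LKO library and CON 4 the highest CON library, and CON 4 lay above 3 of the 5 LKO libraries. The log2 fold change was 0.61 (SE 0.25), 1.53-fold with a 95% interval of 1.05- to 2.22-fold, and the edgeR adjusted p was 0.185. Without LKO 3 the log2 fold change was 0.36 (edgeR adjusted p = 0.35), and without CON 4 it was 0.80 (adjusted p = 0.0396). Without both it was 0.55 (adjusted p = 0.0181). Of all genes tested, 15.0% passed without CON 4 and 15.6% without both.

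Acsl1, the most abundant member, showed no difference beyond the spread between mice. It had 1256, 1101, 551, 1368 and 831 CPM in LKO 1 to 5, against 1528, 1349, 1066, 616 and 1163 CPM in CON 1 to 5. LKO 3 and CON 4, the libraries with the most Acsl4 in their groups, had the least Acsl1. The log2 fold change was -0.16 (SE 0.28), or 0.893-fold, and its 95% interval ran from 0.583- to 1.37-fold, so a change of either sign within those bounds is not distinguished (edgeR adjusted p = 0.749). Scaling to total counts alone gave 0.08, in a fit where the median of all genes was 0.235, so that Acsl1 stood 0.159 below that median. Without CON 4 the value was -0.32, and without LKO 3 it was -0.01.

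**Figure D2:**
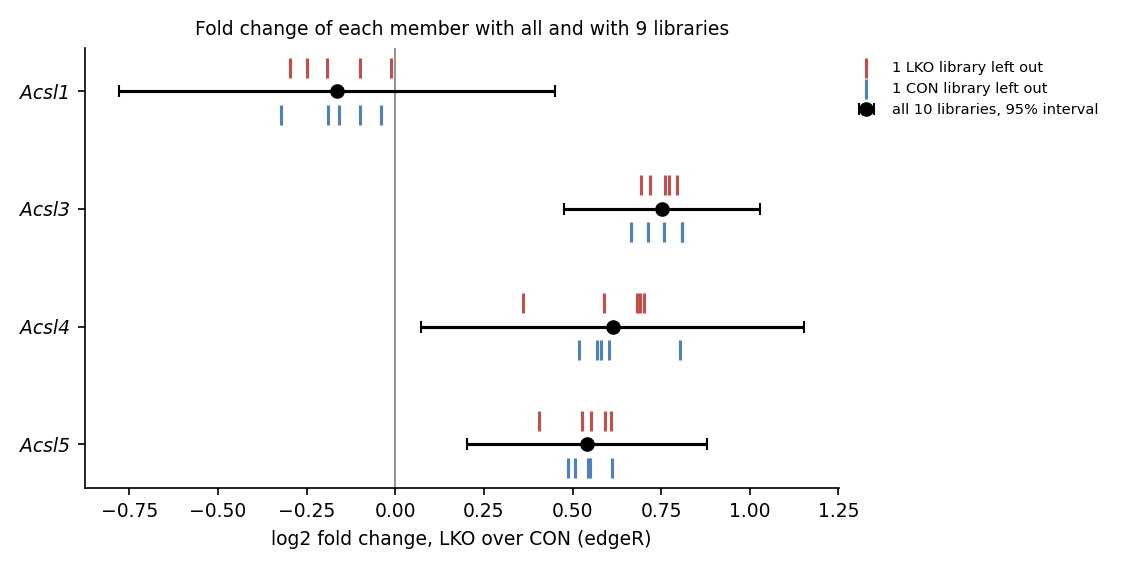
Log2 fold change of each member, LKO over CON, from the edgeR fit on all 10 libraries (black point with its 95% interval) and with 1 library left out at a time (red ticks for LKO libraries, blue ticks for CON libraries). The ticks of Acsl3 stay between 0.67 and 0.81, while those of Acsl4 reach from 0.36 to 0.80.

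Sample titles carry a code in brackets, A54, A55 or A67, whose meaning is not stated, and A54 alone occurs in both groups. Within A54, the 2 LKO libraries minus the 1 CON library gave log2 differences of 1.01 for Acsl3, 0.64 for Acsl5, 0.40 for Acsl4 and -0.38 for Acsl1. The 3 A67 LKO libraries minus the 4 A55 CON libraries gave 0.76 for Acsl3, 0.545 for Acsl5, 0.77 for Acsl4 and -0.235 for Acsl1. Each member thus had the same sign in both comparisons. With the code as a covariate in edgeR, the genotype term rests on A54, where CON 1 is the only CON library. The log2 fold changes in that fit were 1.01 for Acsl3, 0.64 for Acsl5, 0.40 for Acsl4 and -0.37 for Acsl1. They repeat the comparison within A54 and are no separate support for it. Of all libraries, CON 1 was the lowest for Acsl3 (22.0 CPM) and Acsl5 (264 CPM) and the highest for Acsl1 (1528 CPM). Outside A54 the code and the genotype cannot be told apart.

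The make-up of the family was also described, as the share of each member in the summed CPM per kb of the 4 genes, a quantity that does not depend on how libraries are scaled. The sum itself was 384 ± 91.4 CPM per kb in LKO and 368 ± 78.4 CPM per kb in CON (SD, n = 5 each), so the groups overlapped in total. Acsl1 made up 71.9, 67.1, 50.4, 64.6 and 58.7% of it in LKO 1 to 5, against 82.1, 74.9, 73.7, 59.2 and 75.9% in CON 1 to 5. CON 4 was the one CON library that fell among the LKO libraries, and all other CON libraries lay above all LKO libraries.

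Acsl3 made up 2.77, 2.76, 4.49, 2.77 and 3.96% in LKO 1 to 5, against 1.25, 1.98, 2.15, 2.63 and 2.31% in CON 1 to 5. The groups did not overlap in this share. Acsl5 made up 28.2 ± 4.53% in LKO and 20.8 ± 5.95% in CON, with CON 4 at 30.1%. Acsl4 made up 3.65 to 4.86% in 4 LKO libraries and 12.8% in LKO 3, against 2.66 to 3.60% in 4 CON libraries and 8.07% in CON 4. For each 100 units of Acsl1 there were 25.4 units of Acsl4 in LKO 3 and 13.6 in CON 4, and 3.24 to 8.29 in the other 8 libraries. These shares carry no test.

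**Figure D3:**
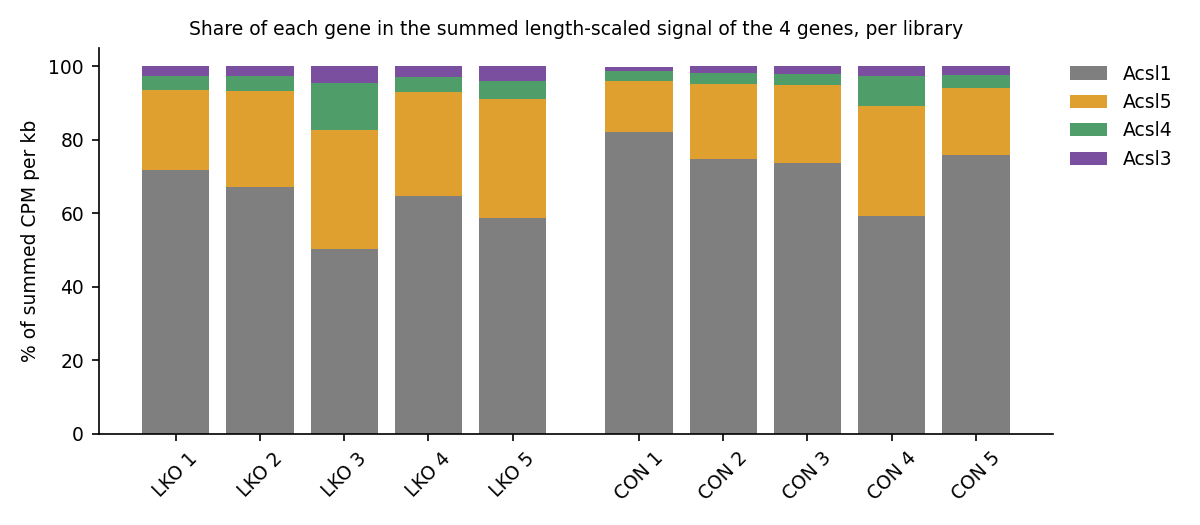
Share of each member in the summed CPM per kb of the 4 genes, in percent, 1 stacked bar per library with LKO left and CON right. Acsl1 is the largest block in every bar, from 50.4% in LKO 3 to 82.1% in CON 1, and the Acsl4 block is widest in LKO 3 and CON 4.

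In LKO 3 and CON 4, sums of macrophage, stellate cell and cholangiocyte markers were high where Acsl4 was high and Acsl1 low. Relative to its own mean over the 10 libraries, in log2 CPM, Acsl3 stood at 0.32 in LKO 3 and -0.52 in CON 4, and Acsl5 at -0.04 in LKO 3 and -0.21 in CON 4. The 8 markers of recruited and lipid-associated macrophages summed to 201 to 787 CPM in LKO, highest in LKO 3, and to 83.2 to 451 CPM in CON, highest in CON 4. All 8 had a log2 fold change above 0 and 0 passed the test. The 8 stellate cell and myofibroblast markers summed to 357 to 807 CPM in LKO and 253 to 600 CPM in CON, again highest in LKO 3 and CON 4. The 6 cholangiocyte markers summed to 28.2 to 367 CPM in LKO and 23.3 to 158 CPM in CON, with the same 2 libraries on top. Spp1 is in the cholangiocyte and the macrophage list. LKO 5 and LKO 4 did not follow this pattern for Acsl4. LKO 5 had 460, 588 and 219 CPM of macrophage, stellate cell and cholangiocyte markers, beside 88.0 CPM of Acsl4. Its Acsl1, at 831 CPM, was the lowest in LKO after LKO 3. LKO 4 had 266, 357 and 44.0 CPM of these markers, beside 116 CPM of Acsl4. Its Acsl1, at 1368 CPM, was the highest in LKO. Summed hepatocyte markers were lowest in LKO 3 (35200 CPM) within LKO and in CON 4 (40500 CPM) within CON.

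Summed T and NK cell markers also had their highest value in LKO 3 and in CON 4, at 2.57 to 6.45 CPM in LKO and 2.72 to 5.42 CPM in CON. Kupffer cell markers summed to 224 to 379 CPM in LKO and 189 to 266 CPM in CON, and sinusoidal endothelial markers to 306 to 502 CPM in LKO and 305 to 378 CPM in CON. Both of these were highest in LKO 4 and CON 1. B and plasma cell markers summed to 2.01 to 3.60 CPM in LKO, highest in LKO 5, and 1.72 to 2.90 CPM in CON, highest in CON 4. Neutrophil markers summed to 1.67 to 6.75 CPM in LKO, highest in LKO 4, and 0.415 to 1.93 CPM in CON, highest in CON 4. None of the markers was at 0 in all libraries, and 0 passed the test. Marker sums also differed between the other libraries. Without LKO 3 and CON 4, macrophage markers summed to 201 to 460 CPM in LKO and 83.2 to 112 CPM in CON, and stellate cell markers to 357 to 588 CPM in LKO and 253 to 340 CPM in CON. Hepatocyte markers then summed to 37700 to 53100 CPM in LKO and 59700 to 65400 CPM in CON, and all 6 had a log2 fold change below 0 with all libraries. Neutrophil markers also did not overlap, at 1.67 to 6.75 CPM in LKO and 0.415 to 1.23 CPM in CON. Kupffer cell, sinusoidal endothelial, T and NK cell, and B and plasma cell sums still overlapped. So did cholangiocyte sums, at 28.2 to 219 CPM in LKO and 23.3 to 32.7 CPM in CON. With all libraries the sums of every list overlapped. CON 4 lay among the LKO libraries on principal component 1, so leaving it out favours such gaps. Without LKO 3 and CON 4, Acsl3 had a log2 fold change of 0.73. The part of these cell types in the levels of the 4 members was not tested.

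**Figure D4:**
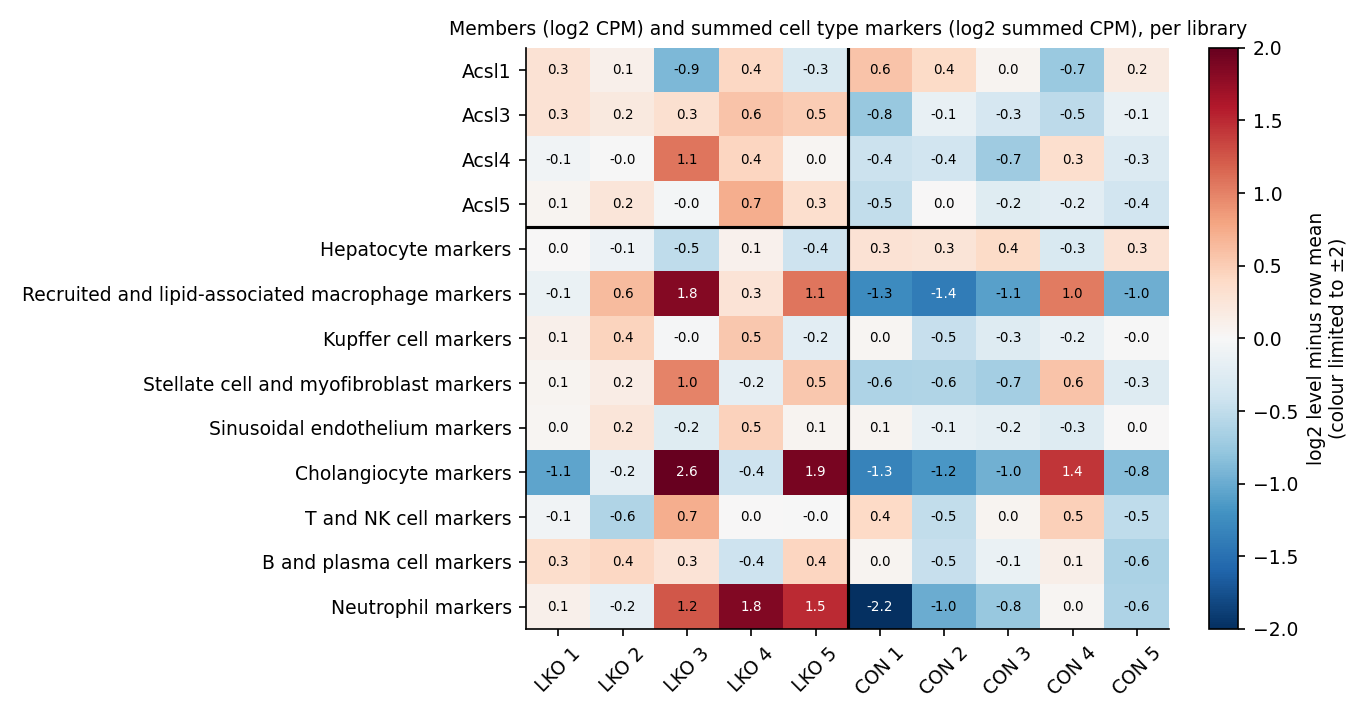
Log2 level of the 4 members (top rows, log2 CPM) and of summed cell type markers (lower rows, log2 of summed CPM) in each library, each row minus its own mean over 10 libraries, with LKO left and CON right. LKO 3 and CON 4 share low Acsl1, high Acsl4 and high macrophage, stellate cell and cholangiocyte marker sums, while Acsl3 is above its mean in all LKO libraries and below it in all CON libraries.

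Across the 10 libraries Acsl3 and Acsl5 had the most similar profiles among the members. Likeness was measured as the root mean square difference in log2 CPM over 10 libraries, each profile centred on its own mean, among 12960 named genes with a mean of at least 1 CPM. The difference was 0.222 for Acsl3 and Acsl5, 0.448 for Acsl3 and Acsl4, 0.464 for Acsl4 and Acsl5, 0.571 for Acsl1 and Acsl5, 0.675 for Acsl1 and Acsl3 and 0.875 for Acsl1 and Acsl4. Acsl5 ranked 16 among these genes in nearness to Acsl3, and Acsl3 ranked 82 in nearness to Acsl5. Acsl1 and Acsl4 were the least alike pair. The measure includes the difference between the groups, so genes with similar fold changes come out nearer.

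The genes nearest to Acsl1 were Shmt1 (0.106), a serine hydroxymethyltransferase gene, Mpst (0.116), a sulfurtransferase gene, and Aldh7a1 (0.127), an aldehyde dehydrogenase gene. Nearest to Acsl5 were H2-Q10 (0.107), a class I histocompatibility gene of liver, Plin2 (0.120), a lipid droplet coat gene, and Dbi (0.130), which encodes the acyl-CoA binding protein. Nearest to Acsl4 were Fyb (0.125), an adaptor gene of blood cells, Ifi207 (0.128), an interferon-inducible gene, and Entpd1 (0.143), an ectonucleotidase gene. Nearest to Acsl3 were Gm13215 (0.156), the endothelial nitric oxide synthase gene Nos3 (0.164) and Pigp (0.165), a gene of glycosylphosphatidylinositol anchor synthesis. Plin2 had 499 ± 115 CPM in LKO and 332 ± 62.6 CPM in CON, and Dbi had 381 ± 58.2 CPM in LKO and 301 ± 36.4 CPM in CON. All of these genes missed the edgeR threshold with all libraries. Of these genes, Shmt1, Mpst, Aldh7a1 and Ifi207 moved by over 1.5 times without LKO 3, to log2 fold changes of -0.17, -0.11, -0.135 and 0.33, against -0.32, -0.24, -0.25 and 0.55 with all libraries. Mpst and Aldh7a1 also moved so without CON 1 (-0.136 and -0.153) and without CON 4 (-0.386 and -0.39), and Mpst without LKO 5 (-0.161). With the title code as a covariate, Fyb, Entpd1 and Dbi moved so, to 0.31, 0.38 and 0.585, against 0.52, 0.61 and 0.34.

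Other genes of acyl-CoA handling were taken from 9 lists, in which 124 different genes were tested and 0 passed at an adjusted p under 0.05. At an unadjusted p under 0.05, 33 were higher and 8 lower in LKO, against 12.8% and 9.5% of all genes tested, and their median log2 fold change was 0.165. All edgeR adjusted p-values of the genes named next lay between 0.0766 (Acot2) and 0.297 (Acsm5). Without CON 4, where 15.0% of all genes tested passed, 24 of the 38 genes named from these lists or as nearest profiles passed. Without LKO 3, where 11 of all genes tested passed, it was 1 of 38 (Cyp4a31). Without both libraries, where 15.6% of all genes tested passed, it was 25 of 37 of these named genes. They were named for a small p or for nearness to a member, so these counts say nothing of the lists.

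The other acyl-CoA synthetases, which act on very long, medium or short chains or import fatty acids, had a median log2 fold change of 0.04 over 15 tested of 20. Slc27a1, a fatty acid transport protein with synthetase activity, was the 1 gene of the 15 with an unadjusted p under 0.05, at 10.6 ± 2.39 CPM in LKO and 6.38 ± 2.47 CPM in CON (log2 0.73, and -0.04 with the title code as a covariate). Acsm5 and Acsm2, medium-chain synthetase genes, stood at -0.39 (-0.24 without LKO 3) and -0.90 (-1.42 without LKO 5). Acyl-CoA thioesterases, which hydrolyse what the synthetases make, had a median of 0.39 over 12 tested of 13, with 4 higher and 1 lower at an unadjusted p under 0.05. Mitochondrial Acot2 had 69.1 ± 28.1 CPM in LKO and 27.1 ± 6.41 CPM in CON (log2 1.35), without overlap. Cytosolic Acot1 stood at 1.18. With the title code as a covariate Acot2 stood at 0.42 and Acot1 at -0.07. Acot13 stood at 0.38. Acot1 and Acot2 are close copies, so the division of reads between them is uncertain.

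Acyl-CoA binding and carnitine shuttle genes had a median of 0.04 over 11 tested of 13, with 3 higher and 2 lower at an unadjusted p under 0.05. Crat, carnitine acetyltransferase, had 115 ± 13.4 CPM in LKO and 69.9 ± 19.4 CPM in CON (log2 0.72), and Acbd4, an acyl-CoA binding gene of peroxisomes, had 30.1 ± 6.10 CPM in LKO and 42.1 ± 3.92 CPM in CON (log2 -0.48), both without overlap. Acbd3 stood at 0.26. Of the 16 glycerolipid and sterol acyltransferases, all tested, 3 were higher and 1 lower at that level (median 0.07). Gpat3, which starts glycerolipid synthesis, had 18.2 ± 4.14 CPM in LKO and 11.2 ± 0.505 CPM in CON (log2 0.70). Agpat4 stood at 0.52, and Dgat2, the last step of triglyceride synthesis, at -0.59. Among 7 tested of 9 lysophospholipid acyltransferases other than Lpcat3, 2 were higher (median 0.43), namely Lpcat4 (0.94) and Lpcat2 (0.68), and Mboat1 stood at 1.62 with an unadjusted p of 0.0758. Mboat1 stood at 0.93 without LKO 3 and at 2.45 without CON 4. Lpcat2 stood at 1.05 without CON 4 (edgeR adjusted p = 0.0107, with 15.0% of all genes passing). With the title code as a covariate the values were 1.19 for Crat, -0.31 for Acbd4, 0.43 for Gpat3 and 3.03 for Mboat1.

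Polyunsaturated fatty acid synthesis had a median of 0.185 over 10 tested of 11, with 3 higher and 1 lower at an unadjusted p under 0.05. The higher ones were the elongase gene Elovl5 (0.98) and the desaturase genes Fads2 (0.89) and Fads1 (0.88), which stood at 1.51, 1.62 and 2.03 with the title code as a covariate. Of 20 tested of 21 genes of ferroptosis and iron handling, 3 were higher and 2 lower (median 0.10). Slc7a11, the cystine importer, had 3.13 ± 1.71 CPM in LKO and 1.13 ± 0.591 CPM in CON (log2 1.47), Gpx4, the lipid hydroperoxide reductase, had 226 ± 18.4 CPM in LKO and 165 ± 39.8 CPM in CON (log2 0.45), and Sat1 stood at 0.33 (0.09 with that covariate). Slc7a11 stood at 1.09 without LKO 3 and at 1.82 without CON 4 (edgeR adjusted p = 0.0157, with 15.0% of all genes passing). PPARalpha targets had a median of 0.325 over 24 tested of 24, with 13 higher and 0 lower at that level. The 3 with the smallest p were Acot2 and the fatty acid omega-hydroxylase genes Cyp4a31 (1.22) and Cyp4a14 (2.70). Acsl1, itself known as such a target, stood at -0.16 in the same fit. Of 14 lipogenic SREBP1c and LXR targets, all tested, 3 were higher and 1 lower (median 0.195), with Acacb, an acetyl-CoA carboxylase, at 1.19 and the sterol transporter genes Abcg1 and Abca1 at 0.505 and -0.31.

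**Figure D5:**
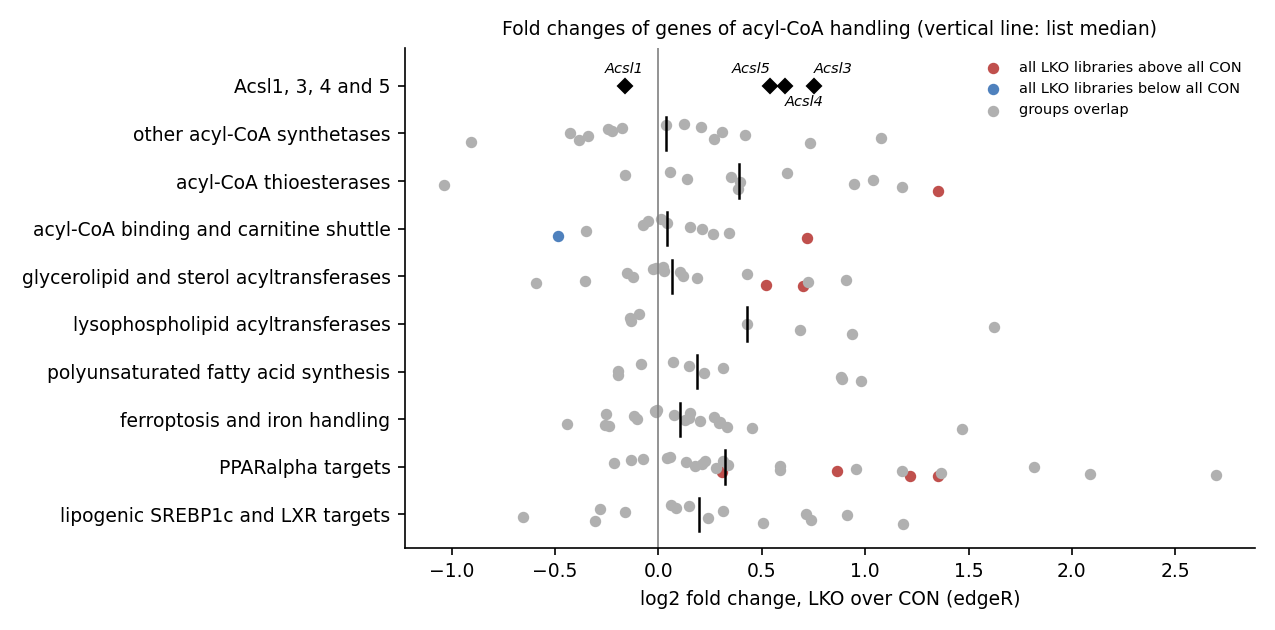
Log2 fold changes, LKO over CON, of the 4 members (top row) and of the tested genes of 9 lists of acyl-CoA handling, 1 point per gene, with a vertical line at each list's median. Red points are genes with all LKO libraries above all CON libraries and blue points the reverse. Acsl1 lies at -0.16, left of the other members, and the PPARalpha targets lie mostly right of 0 with a median of 0.325.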

How the data were processed

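Liver RNA of 5 LKO and 5 CON mice was sequenced. Per the labels' protocols, ribosomal RNA was removed with FastSelect, and stranded libraries were read from 1 end on 1 NovaSeq lane. The deposited table holds raw counts per gene and library, named by NCBI Gene number. Build GRCm39, bcl2fastq 2.20 and DESeq2 are named in the submitters' processing notes. The sources used here do not give the aligner, counter, strand setting or annotation. All 10 columns were matched to samples by the code in the title. Symbols and promoters came from RefSeq (GRCm38.p6, 25275 of 27179 genes matched, the others holding 0.693% of counts) and exon lengths from GENCODE M21 basic coding transcripts of GRCm38, so lengths may differ slightly from the counted models.

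Genes were filtered with filterByExpr, scaled with TMM and tested with edgeR 4.0.16 (quasi-likelihood F test, legacy option, two-sided, R 4.3.3), with Benjamini-Hochberg adjustment over all 15226 genes and a threshold of 0.05. Standard errors and 95% intervals were derived from the F statistic. CPM are TMM-scaled, and log2 CPM used a prior count of 2. DESeq2 1.42.0 and limma 3.58.1 voom were alternatives, with other scalings, filters, covariates and left-out libraries. Tests were checked on simulated counts. Named genes were the members, Acsl6, Lpcat3, up to 3 genes of smallest p per list and 3 nearest profiles per member. Overlapping genes were named after their positions were looked up. Members and lists were chosen with earlier results of these data known.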

Additional observations from a re-analysis of the deposited data

Results flagged for a closer look

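Among the members, 0 of the 8 groups of 5 libraries held a library that stood apart by Dixon's test. Over all 86 groups of the named genes 7 did, where chance flags about 1 in 20. That rate is for unselected genes, while most of these were named for a small p or for nearness to a member. Fyb and Ifi207 were named for nearness to Acsl4, which was itself highest in LKO 3 within LKO and CON 4 within CON. The count of 7 is therefore not read against that rate. CON 4 stood apart at 6.74 CPM for Lpcat2 (other CON 2.34 to 2.93), at 1.16 CPM for Lpcat4 (others 0.527 to 0.68) and at 36.8 CPM for Fyb (others 18.6 to 22.2). LKO 3 stood apart at 19.3 CPM for Acbd4 (other LKO 31.4 to 33.9) and at 46.1 CPM for Ifi207 (others 23.3 to 28.2). CON 5 stood apart at 169 CPM for Cyp4a14 (other CON 18.0 to 45.8), and LKO 4 at 3.21 CPM for Gm13215 (other LKO 1.91 to 2.25).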

How the results depend on the processing

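With 1 library left out, the log2 fold change ran from 0.67 to 0.81 for Acsl3 (adjusted p 0.0109 to 0.187), from 0.40 to 0.61 for Acsl5 (0.0513 to 0.268), from 0.36 to 0.80 for Acsl4 (0.0396 to 0.364) and from -0.32 to -0.01 for Acsl1 (0.389 to 0.985). Acsl3 passed an adjusted p of 0.05 with total counts (0.992), no low-count filter (0.756), at least 1 CPM in 5 libraries (0.763), DESeq2 (0.747), limma voom with quality weights (0.719) and without CON 4 and LKO 3 (0.725), and also without LKO 1 or CON 4. Acsl5 passed with DESeq2 (0.537), voom (0.541) and without CON 4 and LKO 3 (0.619), and Acsl4 with voom (0.547), without CON 4 and LKO 3 (0.551) and without CON 4. Acsl1 turned to 0.0761 with total counts, which moved the median of all genes to 0.235. Slc27a1 and Acot1 turned to -0.0401 and -0.0716 with the title code as a covariate. In that fit the genotype term rests on A54, where CON 1 is the only CON library. Without CON 1 Slc27a1 stood at 0.985 and Acot1 at 1.32, and without the A54 libraries at 1.01 and 1.67. The cause of the turned signs was not tested.

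The number of genes called was 10, and 31 without a low-count filter, 20 with at least 1 CPM in 5 libraries, 1186 with DESeq2, 2460 with voom, 2363 without CON 4 and LKO 3, and 2 to 2296 with 1 library left out (2296 without CON 4, 86 without LKO 1). edgeR called 0 when the title code was a covariate, and 760 had an unadjusted p under 0.05. The replicate numbers carry no stated pairing, and deviations of same-numbered libraries correlated between -0.399 and 0.419. With the replicate number as a block 2 genes were called, and Acsl3 stood at 0.763 (adjusted p = 0.146). Members held 583 to 53754 counts per library, so the spread between mice and not counting error limits them.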
